A study of Homo sapiens with 12 samples.

Results

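A list of 44 genes that encode inflammatory and senescence-associated secreted factors was followed in cells labelled HS578T, an established triple-negative breast cancer line. The members were taken as a fixed list of symbols, 44 of the 60660 genes in the count table, and all 44 were found. The list holds cytokines, chemokines, colony-stimulating factors, growth factors, growth factor-binding proteins and plasminogen activators. It also holds a few of their surface or enzymatic partners, such as the adhesion molecule ICAM1 and the prostaglandin synthase PTGS2. The 4 groups compared had 3 libraries each, made 48 h after treatment. Cells labelled with a heterozygous loss of the short arm of chromosome 17 (17p), titled 17PKO, received 1 µM doxorubicin or the vehicle DMSO. Cells labelled 17p-intact, of genotype WT and titled cas9, received 170 nM doxorubicin or DMSO. They are called deleted and intact cells here. The labels do not say whether a population is 1 clone, and give no further allele or agent. Doxorubicin is an anthracycline that traps topoisomerase II on DNA. Dose and genotype change together between the treated groups, so an effect of genotype and an effect of dose cannot be told apart there.

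Damaged or senescent cells release a mixture of cytokines, chemokines, growth factors and proteases known as the senescence-associated secretory phenotype. In this programme IL-1 at the cell surface signals through NF-kB and C/EBP factors, which bind the promoters of IL6 and of CXCL8, and AP-1 takes part at many of the same genes. The secreted products attract leukocytes, loosen matrix and feed back on the cells that release them. NF-kB binds short, nearly palindromic DNA sites near the starts of these genes.

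Promoter sequences are shown for CXC chemokines of 1 gene cluster, IL6, ICAM1 and CXCL10, because the values of these genes are described below and their windows hold letters of an NF-kB form. They come from RefSeq (GRCh38.p14), run 5′ to 3′ on the gene's strand and end at the base before the annotated start. Capitals mark each match to the NF-kB consensus or to the looser form GGANNTTCC, searched on both strands; a match to one can overlap a match to the other.
CXCL1 (chr4:73869263-73869392, plus strand): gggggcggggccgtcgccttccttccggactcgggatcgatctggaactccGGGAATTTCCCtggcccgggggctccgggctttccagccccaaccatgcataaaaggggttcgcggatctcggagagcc
CXCL2 (chr4:74099196-74099325, minus strand): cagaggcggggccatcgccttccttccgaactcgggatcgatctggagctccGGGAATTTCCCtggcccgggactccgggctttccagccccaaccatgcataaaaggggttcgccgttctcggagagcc
CXCL3 (chr4:74038690-74038819, minus strand): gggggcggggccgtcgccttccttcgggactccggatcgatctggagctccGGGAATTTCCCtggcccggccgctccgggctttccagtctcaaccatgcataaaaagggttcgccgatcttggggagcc
CXCL5 (chr4:73998678-73998807, minus strand): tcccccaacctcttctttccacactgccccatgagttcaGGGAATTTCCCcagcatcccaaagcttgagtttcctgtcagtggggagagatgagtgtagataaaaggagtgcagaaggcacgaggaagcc
CXCL6 (chr4:73836548-73836677, plus strand): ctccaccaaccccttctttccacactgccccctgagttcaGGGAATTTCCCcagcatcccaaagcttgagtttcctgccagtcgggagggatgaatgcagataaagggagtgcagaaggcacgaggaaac
CXCL8 (chr4:73740439-73740568, plus strand): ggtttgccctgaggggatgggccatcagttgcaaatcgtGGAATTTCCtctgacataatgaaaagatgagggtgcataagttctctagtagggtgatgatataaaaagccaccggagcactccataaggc
IL6 (chr7:22727070-22727199, plus strand): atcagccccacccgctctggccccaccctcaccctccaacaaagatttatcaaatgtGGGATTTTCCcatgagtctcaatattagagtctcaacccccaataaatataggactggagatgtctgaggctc
ICAM1 (chr19:10270920-10271119, plus strand): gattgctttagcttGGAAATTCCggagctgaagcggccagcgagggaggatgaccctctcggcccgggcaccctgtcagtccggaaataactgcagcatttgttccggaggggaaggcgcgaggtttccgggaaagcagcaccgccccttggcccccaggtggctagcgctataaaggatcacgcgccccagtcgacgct
CXCL10 (chr4:76023498-76023697, minus strand): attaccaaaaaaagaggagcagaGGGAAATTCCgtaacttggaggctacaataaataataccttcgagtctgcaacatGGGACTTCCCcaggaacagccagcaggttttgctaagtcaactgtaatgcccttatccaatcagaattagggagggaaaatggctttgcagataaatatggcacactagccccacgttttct

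Of the 44 members 33 had a RefSeq promoter window, from 250 bases before to 50 after the start. The NF-kB consensus stood in 12 of these 33 genes (36.4%), against 7.09% of the 27305 genes with a window. GGANNTTCC stood in 13 members (39.4%), against 5.57% of genes, and either form in 16 members (48.5%), against 11.1% of genes. The AP-1 form TGANTCA stood in 6 members (18.2%), against 9.37% of genes, with 2 sites near the IL1A start, each seen in a pair of overlapping windows. The interferon-type form GAAANNGAA also stood in 6 members (18.2%), against 9.86% of genes. These are matches of letters, not measured binding. CXCL5 and CXCL6 hold the same capitals as CXCL1, CXCL2 and CXCL3, yet they had at most 8 and 6 counts in any library here.

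Library totals ran from 66150539 to 99142099 counts. The mitochondrial share of counts was 5.54% in intact doxorubicin replicate 1 and 6.9% in deleted DMSO replicate 2, against 2.61% to 3.57% elsewhere. A call that changed without these 2 libraries is named beside its values for the members followed. These had passed with all libraries or reached a mean of 1 CPM in a group. Calls of other members changed too. In treated deleted cells 23 members were then higher, against 21, with 4257 of 22496 genes higher. For the difference of doxorubicin effects between the populations 22 members were higher and 3 lower, against 19 and 2. Over all genes 2523 were higher and 2187 lower there. Read against the recorded karyotype of the line, chromosome-specific transcripts failed to match in 12 of 12 libraries, so the cells are called by their labels and their identity was not settled. POLR2A, a gene of 17p, averaged 602 ± 157 CPM in deleted and 482 ± 47 CPM in intact cells in DMSO (SD, n = 3 each; log2 fold change 0.32, SE 0.16, edgeR adjusted p = 0.151), so this gene does not show the labelled loss. CPM are counts per 1000000 after scaling by the trimmed mean of M values (TMM). Of 10 mesenchymal markers of the line all but COL1A2 were clearly expressed, and COL1A2 had group means of 0.16 to 1.6 CPM. The 10 genes summed to 5413 to 5530 CPM in treated deleted cells and 7421 to 7867 CPM in deleted cells in DMSO. Their sum was 8675 to 8904 CPM in treated intact cells and 9845 to 10292 CPM in intact cells in DMSO.

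Of the 44 members 38 had enough counts for edgeR's quasi-likelihood test, in which a gene passed at a Benjamini-Hochberg adjusted p under 0.05 over 21803 genes. In deleted cells 1 µM doxorubicin raised 21 members and lowered 6, while 11 did not pass. Over all genes tested 17.5% were called higher and 13.1% lower. The median log2 fold change of the 38 members was 1.11, against -0.02 over all genes, and it was the same with the 2 members at 0 counts in a group set to their count bounds. The genes that rose included the IL-1 cytokines, the interleukins IL6, LIF and IL7, 4 CXC chemokines that attract neutrophils, CSF1, ICAM1, PTGS2, the EGF ligands AREG and HBEGF, VEGFA and the plasminogen activator PLAT. The genes that fell were IL15, VCAM1, TNFAIP6, STC1, IGFBP5 and PLAUR. The comparisons below share libraries with each other, since each group enters at least 2 of them. In bulk RNA a change in the number of expressing cells and a change in RNA per cell cannot be told apart.

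In intact cells 170 nM doxorubicin raised 0 members and lowered 1, CXCL12, while 37 did not pass. Over all genes tested 0.0275% were called higher and 0.0321% lower. At an unadjusted p under 0.05, edgeR had 2 members higher and 10 lower, and 2504 of the 21803 genes in either direction. DESeq2 called 1 higher, ICAM1, and 3 lower, which were CXCL12, CSF1 and IGFBP3. Over all genes DESeq2 called 253 higher and 214 lower. With limma-voom 0 members were higher and 1 lower, and 11 and 14 over all genes. The median log2 fold change was -0.15, against 0.01 over all genes.

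**Figure D1:**
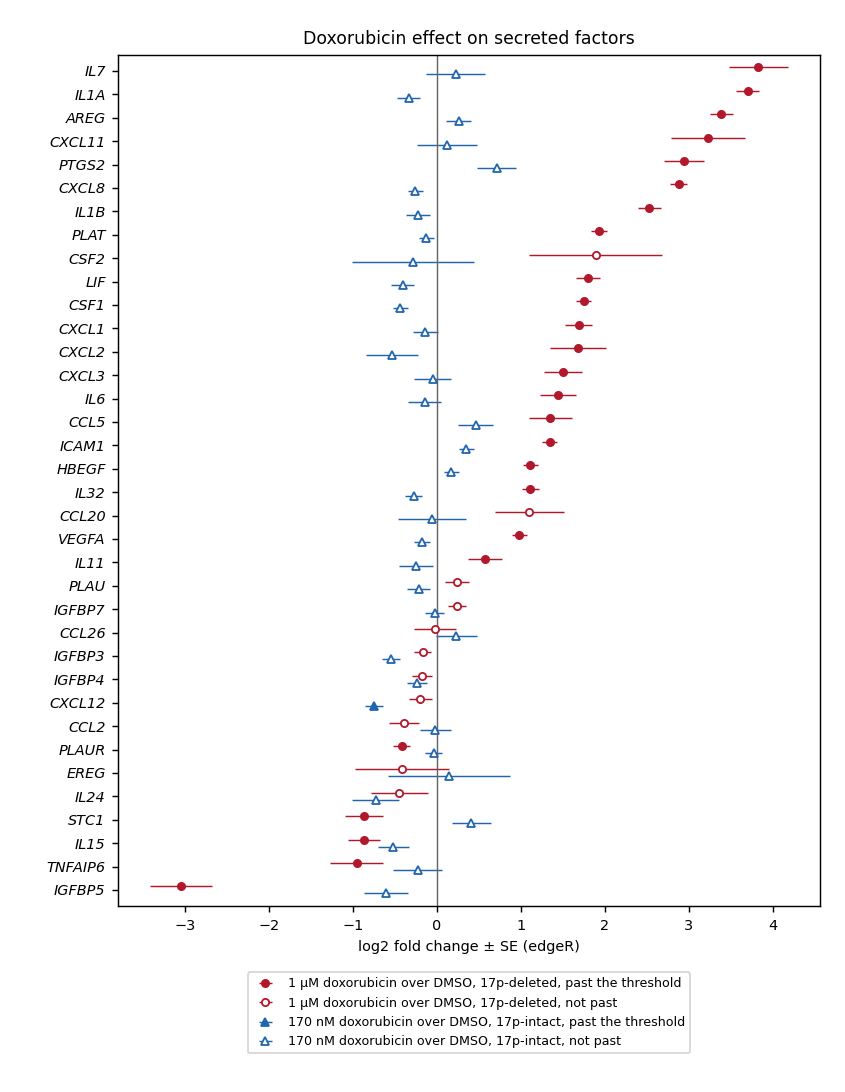
Log2 fold change (doxorubicin over DMSO) with its SE from edgeR for 36 tested members, in 17p-deleted cells at 1 µM (red circles) and 17p-intact cells at 170 nM (blue triangles); filled symbols passed an adjusted p of 0.05, and CXCL10 and VCAM1 are left out because a group of theirs is at 0 counts. Red points reach 3.83 for IL7 and -3.05 for IGFBP5, while CXCL12 (-0.75) is the one filled blue point.

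IL1A and IL1B, the cytokines that bind the IL-1 receptor and start NF-kB signalling, both rose in deleted cells. IL1A stood at 17.2, 18.9 and 19.5 CPM in treated deleted cells, against 1.29, 1.57 and 1.41 CPM in DMSO (log2 fold change 3.70, SE 0.14, edgeR adjusted p = 9.52e-10). In intact cells it stood at 1.45, 1.19 and 1.3 CPM with doxorubicin and 1.58, 1.62 and 1.77 CPM with DMSO (-0.34, SE 0.14, edgeR adjusted p = 0.367). The 3 treated deleted libraries therefore lay above the other 9, which spanned 1.19 to 1.77 CPM. IL1B showed the same layout, with 48.3, 47.1 and 47 CPM in treated deleted cells, against 7.19, 8.83 and 8.69 CPM in DMSO (2.53, SE 0.14, edgeR adjusted p = 1.79e-08). Treated intact cells held 6.66, 7.56 and 5.1 CPM of IL1B, against 7.22, 7.35 and 8.11 CPM in DMSO, and these groups overlapped. Neither gene passed between deleted and intact cells in DMSO. TNF, the founding member of its cytokine family, and IL33, an alarm cytokine of barrier tissue, had at most 22 and 14 counts in a library and were not tested.

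Among the interleukins 5 of 7 rose and 1 fell in treated deleted cells. LIF, which signals through gp130, stood at 36.6, 35 and 37.8 CPM in treated deleted cells, against 10.3, 7.91 and 13.1 CPM in DMSO (1.80, SE 0.14, edgeR adjusted p = 5.34e-07). Intact cells held 29.6, 33.4 and 33.2 CPM of LIF with doxorubicin, against 42.7, 43 and 42.5 CPM in DMSO (-0.41, SE 0.14, edgeR adjusted p = 0.28). The deleted DMSO libraries were thus the low ones, and the other 3 groups spanned 29.6 to 43 CPM. IL32, a cytokine of lymphoid and epithelial cells, had the same layout. Its level was 26.2, 25.2 and 26.5 CPM in treated deleted cells, against 11.9, 13.4 and 10.9 CPM in DMSO (1.11, SE 0.10, edgeR adjusted p = 2.67e-06), while treated intact cells held 21.8, 24.3 and 20.7 CPM, against 26.9, 25.5 and 28.7 CPM in DMSO. IL6, the gp130 cytokine that gives the family its name, averaged 3.63 ± 0.435 CPM in treated deleted cells and 1.34 ± 0.295 CPM in DMSO, and 3.28 ± 0.376 CPM in treated intact cells and 3.65 ± 0.881 CPM in DMSO (SD, n = 3 each). Its doxorubicin effect in deleted cells was 1.44 (SE 0.21, edgeR adjusted p = 0.000168), and an antisense gene covers 20.7% of its exon bases.

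IL7 and IL11 ended above the other groups. IL7, a growth factor of lymphocytes, averaged 2.15 ± 0.239 CPM in treated deleted cells and 0.151 ± 0.0456 CPM in DMSO (SD, n = 3 each; 3.83, SE 0.35, edgeR adjusted p = 2.06e-06), and at most 0.447 CPM in any intact library. A gene on the opposite strand covers 9.49% of the exon bases of IL7. IL11, another gp130 cytokine, stood at 13.8, 10.7 and 12.2 CPM in treated deleted cells, against 9.75, 5.52 and 9.37 CPM in DMSO (0.57, SE 0.20, edgeR adjusted p = 0.0421). Treated intact cells held 4.93, 7 and 6.76 CPM of IL11, against 7.85, 7.45 and 6.93 CPM in DMSO, and those groups overlapped. The IL11 call was lost in 12 of 23 other settings, with adjusted p between 0.00522 and 0.151; without replicate 2 of the deleted DMSO group its log2 fold change was 0.34 (edgeR adjusted p = 0.123). It was also lost without replicate 1 or 3 of the treated deleted group, any 1 intact DMSO library or replicate 3 of the treated intact group. IL15, which sustains natural killer and memory T cells, fell to 1.11 ± 0.272 CPM in treated deleted cells, against 2.02 ± 0.271 CPM in DMSO (SD, n = 3 each; -0.87, SE 0.19, edgeR adjusted p = 0.00328). IL24, an IL-10 family cytokine, stayed under 0.3 CPM in the 6 deleted libraries and did not pass with doxorubicin.

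Of the 6 neutrophil-attracting CXC chemokines 4 rose in treated deleted cells, and CXCL5 and CXCL6 were not tested. CXCL8, interleukin-8, the classical neutrophil attractant, stood at 47.4, 49.8 and 47.5 CPM in treated deleted cells, against 5.92, 6.53 and 7.18 CPM in DMSO (2.88, SE 0.10, edgeR adjusted p = 5.69e-10). Intact cells held 15.3, 15.4 and 16.2 CPM of CXCL8 with doxorubicin, against 18.4, 18.3 and 19.7 CPM in DMSO (-0.26, SE 0.09, edgeR adjusted p = 0.312). Every treated deleted library was therefore above every intact library, and every deleted DMSO library below. CXCL1, CXCL2 and CXCL3, close relatives that share the receptor CXCR2, rose by 1.69 (SE 0.16, edgeR adjusted p = 2.79e-06), 1.68 (SE 0.33, edgeR adjusted p = 0.00148) and 1.5 (SE 0.23, edgeR adjusted p = 0.000248) on the log2 scale. CXCL1 averaged 4.55 ± 0.569 CPM in treated deleted cells and 1.41 ± 0.223 CPM in DMSO, and 3.37 ± 0.0695 CPM in treated intact cells and 3.7 ± 0.307 CPM in DMSO (SD, n = 3 each). CXCL2 and CXCL3 stood at 1.38 ± 0.299 and 1.67 ± 0.242 CPM in treated deleted cells and 0.431 ± 0.209 and 0.584 ± 0.13 CPM in DMSO (SD, n = 3 each). Their transcripts share no 100-base window with CXCL1 or with each other, so reads of that length tell them apart.

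The interferon-inducible chemokines and CXCL12 differed from each other. CXCL10, which binds CXCR3 on T cells, had 60 counts over the 3 treated deleted libraries and 0 over the 3 in DMSO, at least 16.4-fold higher with a floor of 3 counts over the group (edgeR adjusted p = 0.000289). CXCL11, a second CXCR3 ligand, had 60, 73 and 63 counts in treated deleted cells, against 3, 8 and 6 counts in DMSO (3.23, SE 0.44, edgeR adjusted p = 7.89e-05). Both stayed under 0.9 CPM in every library. Every count of CXCL10 was an even number, so both reads of a pair may have been counted, and its bound may be too high. CXCL12, the stromal chemokine that binds CXCR4, stood at 0.614, 0.753 and 0.72 CPM in treated deleted cells, against 0.917, 0.733 and 0.758 CPM in DMSO, and these groups overlapped. In intact cells it fell to 9.85, 9.74 and 10.5 CPM, against 17.4, 16.2 and 17.1 CPM in DMSO (-0.75, SE 0.11, edgeR adjusted p = 0.0376). The groups of intact cells were apart for CXCL12, but the call was lost in 12 of 23 other settings, with adjusted p between 8.44e-08 and 0.271. Leaving out any 1 intact library other than replicate 2 of the treated group ended it, and so did leaving out any 1 deleted library other than replicate 2 of the DMSO group. The difference of doxorubicin effects between the populations did not pass for CXCL12 (0.56, SE 0.18, edgeR adjusted p = 0.0547). It passed in some other settings, among them DESeq2 (0.57, adjusted p = 0.0452) and library totals (0.67, edgeR adjusted p = 0.0316).

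CCL5, which attracts T cells and monocytes, was the one CC chemokine to rise in treated deleted cells. It stood at 1.68, 1.61 and 1.69 CPM there, against 0.325, 0.923 and 0.694 CPM in DMSO (1.35, SE 0.26, edgeR adjusted p = 0.00117). Intact cells held 11.1, 12.9 and 9.94 CPM of CCL5 with doxorubicin, against 7.91, 7.47 and 9.2 CPM in DMSO (0.46, SE 0.21, edgeR adjusted p = 0.438). Its lowest intact library was thus over any deleted library, treated or not. CCL2, the main monocyte attractant, stood at 4.81, 5.99 and 5.77 CPM in treated deleted cells, against 5.43, 8.96 and 7.27 CPM in DMSO, with overlap. Treated intact cells held 6.3, 5.82 and 4.71 CPM of CCL2, against 5.26, 5.73 and 6.04 CPM in DMSO. By edgeR with all 12 libraries, TMM scaling and no GC correction, CCL2 passed in none of the 5 comparisons. With the GC trend removed it passed with doxorubicin in deleted cells (-0.39, edgeR adjusted p = 0.0484). When deleted DMSO replicate 1 was left out, CCL2 passed with doxorubicin in deleted cells (-0.55, edgeR adjusted p = 0.0263) and between the populations in DMSO (0.51, edgeR adjusted p = 0.0338). CCL20, a ligand of CCR6, had 71, 95 and 61 counts in treated deleted cells, against 14, 38 and 36 counts in DMSO, and missed the threshold (1.10, SE 0.41, edgeR adjusted p = 0.056). CCL26, a ligand of the eosinophil receptor CCR3, averaged 1.83 ± 0.341 CPM in treated deleted cells and 1.86 ± 0.52 CPM in DMSO (SD, n = 3 each).

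CSF1, the growth factor of macrophages, was the colony-stimulating factor with the highest level per kilobase of exon. It stood at 80.6, 76.7 and 80.3 CPM in treated deleted cells, against 24, 21.1 and 25.7 CPM in DMSO (1.75, SE 0.09, edgeR adjusted p = 1.2e-08). Intact cells held 59.1, 67 and 64.5 CPM of CSF1 with doxorubicin, against 88.3, 85.8 and 84.9 CPM in DMSO (-0.44, SE 0.09, edgeR adjusted p = 0.0869). CSF1 was thus lowest in untreated deleted cells and highest in untreated intact cells. The decrease in intact cells passed without replicate 2 of the deleted DMSO group (-0.45, edgeR adjusted p = 0.019), without the 2 libraries of high mitochondrial share (-0.39, edgeR adjusted p = 0.0303) and under DESeq2 (-0.45, adjusted p = 0.000775). CSF2, the granulocyte-macrophage factor, had 22, 28 and 41 counts in treated deleted cells, against 0, 14 and 6 counts in DMSO (edgeR adjusted p = 0.0861). CSF3, the granulocyte factor, was not tested and had 22 counts over the treated deleted libraries and 0 over those in DMSO, at least 6.03-fold higher by the same floor of 3 counts over the group.

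ICAM1, the endothelial and epithelial ligand of leukocyte integrins, had the highest level per kilobase of exon of the members that rose. It stood at 148, 159 and 163 CPM in treated deleted cells, against 62.5, 56.7 and 66.2 CPM in DMSO (1.34, SE 0.09, edgeR adjusted p = 7.59e-08). Intact cells held 30.5, 28.4 and 30.9 CPM of ICAM1 with doxorubicin, against 23.2, 22.8 and 24.7 CPM in DMSO (0.35, SE 0.09, edgeR adjusted p = 0.152). No 2 of the 4 groups overlapped for ICAM1. An antisense RNA covers 22% of its exon bases, and the strand setting of the counting is not given in the sources used here. VCAM1, the partner of the integrin VLA-4, had 0 counts in treated deleted cells and 4, 0 and 2 in DMSO. That call (edgeR adjusted p = 0.045) was lost in 13 of 21 other settings, with adjusted p between 0.0134 and 0.154, among them each fit that left out a treated deleted or an intact DMSO library, replicate 1 or 3 of the deleted DMSO group, or replicate 1 or 3 of the treated intact group.

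PTGS2, the inducible cyclooxygenase of prostaglandin synthesis, stood at 4.8, 5.38 and 5.7 CPM in treated deleted cells, against 0.562, 0.692 and 0.808 CPM in DMSO (2.94, SE 0.24, edgeR adjusted p = 5.92e-07). Treated intact cells held 1.4, 0.869 and 1.59 CPM of PTGS2, against 0.889, 0.831 and 0.651 CPM in DMSO (0.71, SE 0.23, edgeR adjusted p = 0.27). The treated deleted libraries lay above the other 9. TNFAIP6, a hyaluronan-binding protein induced by TNF, fell to 0.345 ± 0.0792 CPM in treated deleted cells, against 0.673 ± 0.22 CPM in DMSO (SD, n = 3 each; -0.96, SE 0.32, edgeR adjusted p = 0.0368). These groups overlapped, and the call was lost in 8 of 23 other settings, with adjusted p between 0.0128 and 0.138; it is lost without the 2 libraries of high mitochondrial share (edgeR adjusted p = 0.0791), and without replicate 1 or 2 of the deleted DMSO group, replicate 2 or 3 of the treated deleted group or replicate 1 of the intact DMSO group.

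AREG and HBEGF, ligands that activate the EGF receptor, rose in treated deleted cells. AREG stood at 63.8, 67.5 and 59.6 CPM there, against 5.03, 7.61 and 5.57 CPM in DMSO (3.39, SE 0.14, edgeR adjusted p = 1.8e-09). Intact cells held 2.2, 2.15 and 1.97 CPM of AREG with doxorubicin, against 1.75, 1.69 and 1.82 CPM in DMSO (0.26, SE 0.15, edgeR adjusted p = 0.531). AREG was thus higher in each deleted library than in any intact one. HBEGF stood at 42.1, 41.6 and 42.7 CPM in treated deleted cells, against 18.7, 20.4 and 19.4 CPM in DMSO (1.11, SE 0.09, edgeR adjusted p = 4.55e-07), while treated intact cells held 28, 27.5 and 24.7 CPM, against 24.5, 24 and 22.8 CPM in DMSO. The highest HBEGF values were those of treated deleted cells, with the intact libraries between the deleted groups. EREG, a further EGF receptor ligand, had 22, 19 and 23 counts in treated deleted cells, against 22, 29 and 20 counts in DMSO.

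VEGFA, the main angiogenic growth factor, stood at 78.4, 75.8 and 82.9 CPM in treated deleted cells, against 43.3, 39.3 and 37.6 CPM in DMSO (0.98, SE 0.09, edgeR adjusted p = 2.19e-06). Treated intact cells held 41.1, 38.1 and 42.6 CPM of VEGFA, against 44.2, 49.4 and 44.5 CPM in DMSO (-0.18, SE 0.09, edgeR adjusted p = 0.464). The treated deleted libraries stood apart from the other 9, which spanned 37.6 to 49.4 CPM. STC1, a glycoprotein hormone of calcium and phosphate handling, fell to 3.1, 5 and 4.96 CPM in treated deleted cells, against 6.24, 10.2 and 7.5 CPM in DMSO (-0.87, SE 0.23, edgeR adjusted p = 0.00937). In intact cells STC1 stood at 6.56, 4.05 and 5.71 CPM with doxorubicin, against 4.07, 3.93 and 4.29 CPM in DMSO, and these groups overlapped. HGF, the ligand of MET, had at most 10 counts in a library and was not tested.

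The IGF-binding proteins, which hold insulin-like growth factors outside cells, mostly did not pass with doxorubicin. IGFBP5 fell to 0.0746 ± 0.0102 CPM in treated deleted cells, against 0.625 ± 0.281 CPM in DMSO (SD, n = 3 each; -3.05, SE 0.37, edgeR adjusted p = 2.93e-05). IGFBP3, the main carrier in serum, stood at 41.1, 42.8 and 40.4 CPM in treated deleted cells, against 43.4, 53.6 and 43 CPM in DMSO (-0.17, SE 0.10, edgeR adjusted p = 0.248). Its values in intact cells were 25.7, 22.4 and 21.8 CPM with doxorubicin, against 34.8, 32.8 and 34.9 CPM in DMSO (-0.55, SE 0.11, edgeR adjusted p = 0.0629). The intact groups did not overlap for IGFBP3, and the difference passed without replicate 2 of the deleted DMSO group (edgeR adjusted p = 0.00973) and without the 2 libraries of high mitochondrial share (-0.63, edgeR adjusted p = 0.0081). With the GC trend removed IGFBP3 passed in deleted cells as well (-0.28, edgeR adjusted p = 0.0224). IGFBP4, a carrier cleaved by the protease PAPP-A, stood at 80.1, 68.3 and 73.2 CPM in treated deleted cells, against 90, 71.4 and 89.1 CPM in DMSO, and at 37.1, 47.9 and 39.1 CPM in treated intact cells, against 51.3, 47.3 and 48.3 CPM in DMSO. IGFBP7, a matrix-bound relative, stood at 34.5, 34.6 and 31.2 CPM in treated deleted cells, against 28.3, 30 and 26.9 CPM in DMSO, and at 10.1, 11.6 and 10.3 CPM in treated intact cells, against 10.4, 9.82 and 12.6 CPM in DMSO. For both genes the deleted libraries lay above the intact ones in either treatment. IGFBP4 passed with doxorubicin in deleted cells without the 2 libraries of high mitochondrial share (-0.29, edgeR adjusted p = 0.0315) and with the GC trend removed (-0.49, edgeR adjusted p = 0.000219). A gene on the opposite strand covers 14% of the exon bases of IGFBP7.

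PLAT, the tissue-type plasminogen activator, stood at 115, 111 and 118 CPM in treated deleted cells, against 30.7, 26.8 and 32.8 CPM in DMSO (1.93, SE 0.10, edgeR adjusted p = 7.34e-09). Treated intact cells held 68.2, 78.4 and 73.7 CPM of PLAT, against 75.4, 82.1 and 84 CPM in DMSO (-0.13, SE 0.09, edgeR adjusted p = 0.616). As for CXCL8, the intact libraries lay between the 2 groups of deleted cells. PLAU, the urokinase, stood at 46.6, 51.6 and 48.7 CPM in treated deleted cells, against 43.4, 31.2 and 49.4 CPM in DMSO (0.24, SE 0.14, edgeR adjusted p = 0.206), and at 60.7, 71.1 and 66.4 CPM in treated intact cells, against 72.3, 77.8 and 81.4 CPM in DMSO. The deleted groups overlapped for PLAU, which passed without replicate 3 of the deleted DMSO group (0.39, edgeR adjusted p = 0.0485), and an opposite-strand gene covers 31.1% of its exon bases. PLAUR, the urokinase receptor, fell to 23, 25.5 and 22.3 CPM in treated deleted cells, against 30.8, 33.1 and 30.7 CPM in DMSO (-0.42, SE 0.10, edgeR adjusted p = 0.0073), while intact cells held 27.6, 30.1 and 23.4 CPM with doxorubicin, against 27.3, 27.8 and 28.4 CPM in DMSO.

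**Figure D2:**
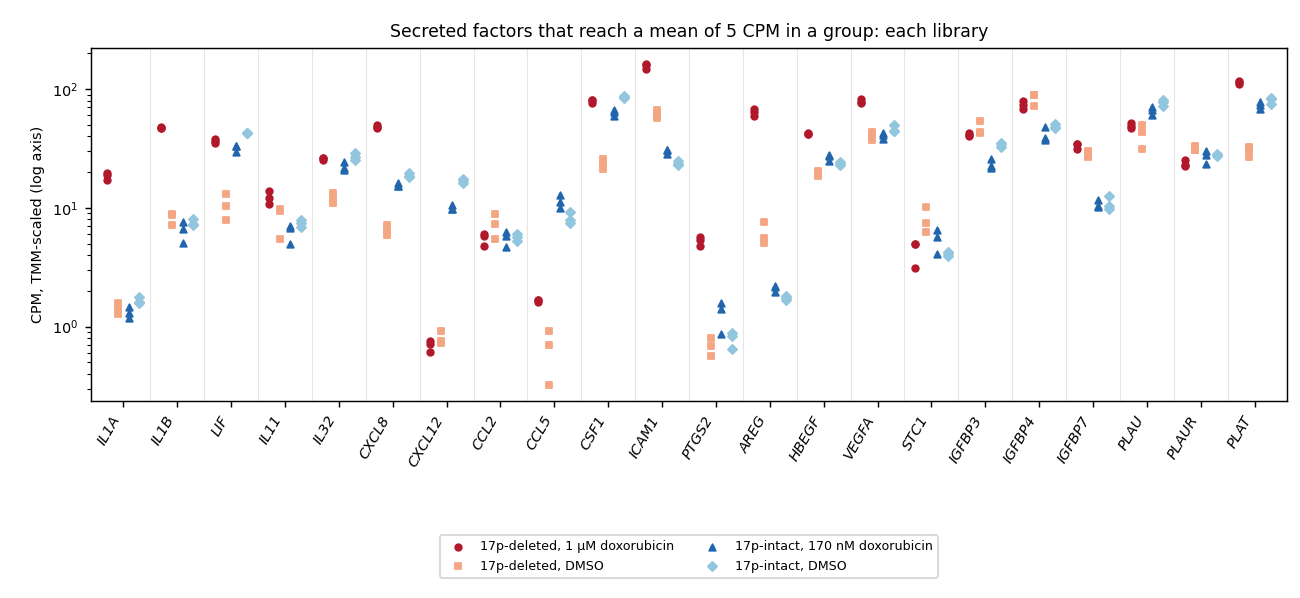
TMM-scaled CPM (log axis) in each of the 12 libraries for the 22 members with a mean of at least 5 CPM in a group; each point is 1 library, red circles are 17p-deleted cells in 1 µM doxorubicin, orange squares 17p-deleted cells in DMSO, dark blue triangles 17p-intact cells in 170 nM doxorubicin and light blue diamonds 17p-intact cells in DMSO. For IL1A, IL1B and AREG the red circles stand above all other points, while for LIF and CSF1 the orange squares (at most 13.1 and 25.7 CPM) stand below all others.

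Between the populations in DMSO, 7 members were higher and 21 lower in deleted cells, and 10 did not pass. Over all genes tested 18.8% were called higher and 16.2% lower. The median log2 fold change of the members was -1.02, against 0.04 over all genes. The lower members included LIF (-2.03, SE 0.15, edgeR adjusted p = 2.77e-07), CSF1 (-1.87, SE 0.09, edgeR adjusted p = 1.17e-08) and CXCL8 (-1.52, SE 0.10, edgeR adjusted p = 1.05e-07). PLAT (-1.42, SE 0.10, edgeR adjusted p = 1.65e-07), IL6 (-1.44, SE 0.21, edgeR adjusted p = 0.000162) and IL32 (-1.16, SE 0.10, edgeR adjusted p = 2.26e-06) were lower as well. Among members with counts in each library the lowest were CXCL12 (-4.40, SE 0.14, edgeR adjusted p = 2.83e-10) and CCL5 (-3.65, SE 0.26, edgeR adjusted p = 2.28e-07). CXCL10 had 0 counts in deleted and 88 in intact cells, at least 27.2-fold lower by the floor of 3 counts over the group. The higher members were ICAM1 (1.39, SE 0.09, edgeR adjusted p = 9.88e-08), AREG (1.79, SE 0.15, edgeR adjusted p = 9.62e-07), EREG, STC1 (0.96, SE 0.23, edgeR adjusted p = 0.00488), IGFBP3, IGFBP4 and IGFBP7 (1.37, SE 0.11, edgeR adjusted p = 9.86e-07). EREG had 22, 29 and 20 counts in deleted cells, against 6, 0 and 6 counts in intact cells (edgeR adjusted p = 0.00632).

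A few of these calls depended on single libraries. IL11, which did not pass in DMSO with all libraries, passed without the 2 libraries of high mitochondrial share (0.34, edgeR adjusted p = 0.0402). CCL26 (-0.75, edgeR adjusted p = 0.0279) was lost in 6 of 23 other settings, including without either replicate 1 or replicate 2 of the deleted and without replicate 1 or replicate 3 of the intact DMSO group, and without the 2 libraries of high mitochondrial share (-0.58, edgeR adjusted p = 0.0539). Its adjusted p ran from 0.00338 to 0.0825. HBEGF (-0.29, edgeR adjusted p = 0.0206) was lost in 4 of 23, with adjusted p between 0.00105 and 0.081, including without replicate 1 or replicate 3 of the deleted and replicate 1 of the intact DMSO group. TNFAIP6 (-1.15, SE 0.30, edgeR adjusted p = 0.00951) was lost in 1 of 23, without replicate 3 of the intact DMSO group (edgeR adjusted p = 0.0559).

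Between treated deleted cells at 1 µM and treated intact cells at 170 nM, 17 members were higher, 10 were lower and 11 did not pass. Over all genes tested 25.9% were called higher and 21.9% lower, and the member median was 0.34, against 0.02 over all genes. AREG (4.92, SE 0.16, edgeR adjusted p = 1.11e-10), IL1A (3.82, SE 0.14, edgeR adjusted p = 2.37e-10), IL1B (2.88, SE 0.14, edgeR adjusted p = 3.09e-09) and IL7 (2.86, SE 0.32, edgeR adjusted p = 6.99e-06) were the members furthest above intact cells. ICAM1 (2.39, SE 0.09, edgeR adjusted p = 3e-10), PTGS2 (2.04, SE 0.22, edgeR adjusted p = 5.47e-06) and CXCL8 (1.62, SE 0.10, edgeR adjusted p = 1.51e-08) were higher too. In contrast, LIF (0.18, SE 0.14, edgeR adjusted p = 0.297), IL32 (0.22, SE 0.10, edgeR adjusted p = 0.0936) and IL6 (0.15, SE 0.20, edgeR adjusted p = 0.587) did not pass, which does not show equal levels. LIF and IL32 change sign in this comparison when the trend with GC content is removed (-0.08 and -0.07).

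CXCL12 (-3.84, SE 0.14, edgeR adjusted p = 1.95e-10), IGFBP5 (-4.54, SE 0.36, edgeR adjusted p = 2.47e-07), CCL5 (-2.76, SE 0.23, edgeR adjusted p = 4.81e-07) and IL15 (-1.65, SE 0.19, edgeR adjusted p = 8.31e-06) stayed lower in treated deleted than in treated intact cells. IL24 (-2.30, SE 0.32, edgeR adjusted p = 4.48e-05) and TNFAIP6 (-1.88, SE 0.32, edgeR adjusted p = 0.000246) did as well. VCAM1 had 0 counts in treated deleted cells, against 26, 16 and 30 counts in treated intact cells (edgeR adjusted p = 0.000178). Other calls were lost in some settings. CSF1 (0.32, edgeR adjusted p = 0.00992) was lost in 6 of 23 and fell to 0.02 with the GC trend removed (edgeR adjusted p = 0.86), and also without replicate 1 or 3 of the treated deleted group or replicate 1 of the treated intact group. CXCL1 (0.44, edgeR adjusted p = 0.0303) was lost in 11 of 23, with adjusted p between 0.0129 and 0.167, among them without replicate 1 or 2 of the treated deleted group, any 1 treated intact library, or replicate 2 of the intact DMSO group. Without the 2 libraries of high mitochondrial share CXCL1 was at 0.40 (edgeR adjusted p = 0.0579). CXCL10 (-1.25, edgeR adjusted p = 0.0452) was lost in 9 of 22, with adjusted p between 0.0202 and 0.137, among them without replicate 1 or 3 of the treated deleted group, replicate 1 or 2 of the treated intact group, or replicate 2 or 3 of the intact DMSO group. Without the 2 libraries of high mitochondrial share CXCL10 was at -1.16 (edgeR adjusted p = 0.08). EREG and PLAU were each lost in 1, EREG without replicate 1 of the treated deleted group (edgeR adjusted p = 0.0509) and PLAU with library totals as the scaling (edgeR adjusted p = 0.0891).

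**Figure D3:**
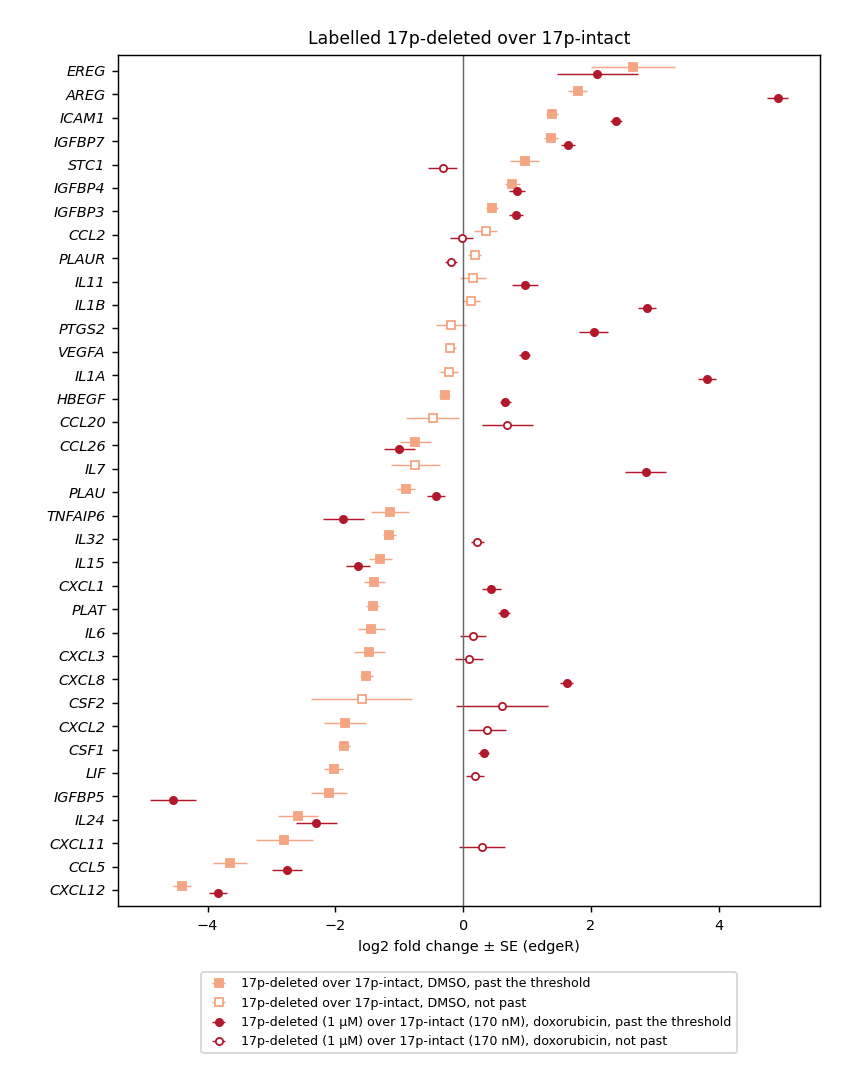
Log2 fold change (17p-deleted over 17p-intact) with its SE from edgeR for 36 tested members, in DMSO (orange squares) and in doxorubicin at 1 µM over 170 nM (red circles); filled symbols passed an adjusted p of 0.05, and CXCL10 and VCAM1 are left out because a group of theirs is at 0 counts. LIF, CSF1 and CXCL8 have squares between -2.03 and -1.52 and circles above 0, while CXCL12, CCL5 and IL15 keep both symbols below -1.

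The doxorubicin effect itself was compared between the populations, a test of the difference in log2 fold change in which the doses differ. The effect was larger in deleted cells for 19 members and smaller for 2, IGFBP5 and STC1, and 17 did not pass. Over all genes tested 10.3% were called higher and 6.74% lower, with a member median of 1.08, against -0.03 over all genes. The difference was 4.04 for IL1A (SE 0.19, edgeR adjusted p = 2.13e-08), 3.15 for CXCL8 (SE 0.14, edgeR adjusted p = 1.5e-08), 3.13 for AREG (SE 0.20, edgeR adjusted p = 2.54e-07) and 2.19 for CSF1 (SE 0.13, edgeR adjusted p = 1.53e-07). It was 0.99 for ICAM1 (SE 0.12, edgeR adjusted p = 7.43e-05), which is already higher in untreated deleted cells. CCL5 (0.89, SE 0.33, edgeR adjusted p = 0.0882) and IL11 (0.82, SE 0.28, edgeR adjusted p = 0.0621) did not pass. Both passed under DESeq2 (adjusted p = 0.0235 for CCL5 and 0.0294 for IL11) and without a filter (edgeR adjusted p = 0.0154 and 0.00524). IL11 also passed with a filter of 1 CPM in 3 libraries (edgeR adjusted p = 0.0472). Without replicate 1 of the deleted DMSO group IL11 passed (edgeR adjusted p = 0.0443), and without replicate 2 of that group CCL5 did (edgeR adjusted p = 0.0112). CCL5 passed without the 2 libraries of high mitochondrial share (1.19, edgeR adjusted p = 0.0157), and IGFBP3 did as well (0.56, edgeR adjusted p = 0.00271). PLAUR passed without replicate 3 of the treated intact group (-0.47, edgeR adjusted p = 0.0372) and with the GC trend removed (-0.69, edgeR adjusted p = 0.0017), and PLAU without replicate 3 of the deleted DMSO group (0.62, edgeR adjusted p = 0.0343).

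A run of 8 members lies together on the long arm of chromosome 4, within 715 kb (chr4:73740506-74455009, hg38), in the order CXCL8, CXCL6, CXCL1, CXCL5, CXCL3, CXCL2, EREG and AREG. Of 22 annotated genes in the stretch 13 are protein-coding and 9 were tested. CXCL8 and AREG, at its ends, had the largest rises with doxorubicin in deleted cells, and CXCL1, CXCL3 and CXCL2 rose between them. The tested genes between them that are no members did not rise, and the member EREG did not pass (-0.42, edgeR adjusted p = 0.623). MTHFD2L, a mitochondrial folate enzyme, fell by 0.50 on the log2 scale (edgeR adjusted p = 0.0225), and EPGN, an EGF ligand that is no member, did not pass (-0.71, edgeR adjusted p = 0.0531). An antisense transcript within MTHFD2L fell by 1.61 (edgeR adjusted p = 0.00493). PPBP, PF4 and PF4V1, platelet chemokines of the same stretch, were at or near 0. CCL2, CCL5, CSF3 and IGFBP4 lie on chromosome 17 but on its long arm, so no member lies on 17p.

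**Figure D4:**
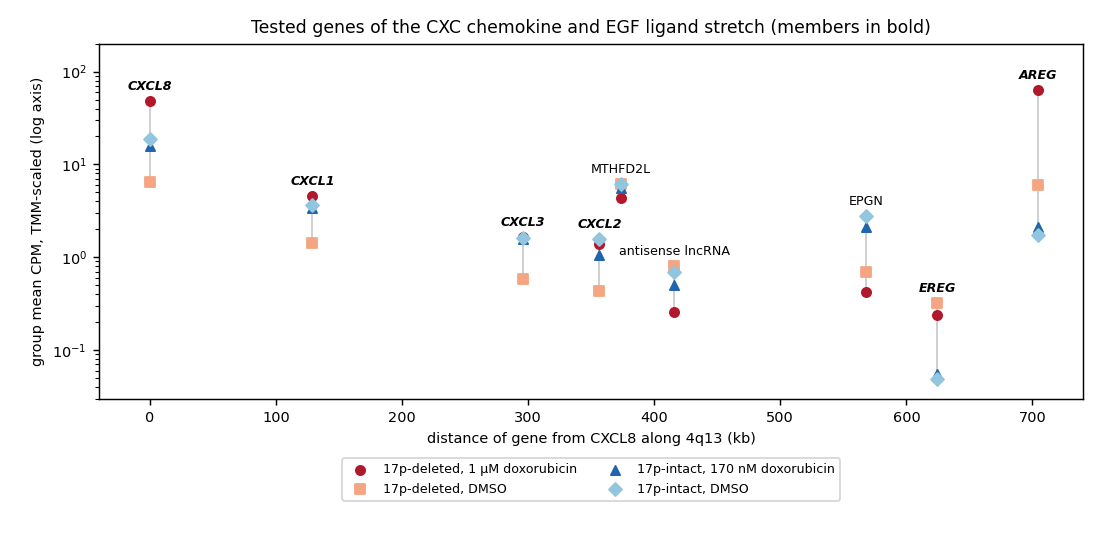
Group mean CPM (log axis) of the 9 tested genes in the chromosome 4 stretch, by distance from CXCL8 in kb; symbols are the 4 groups of 3 libraries, grey lines span the groups of a gene, and members are in bold. CXCL8 (48.3 CPM) and AREG (63.6 CPM) in treated deleted cells stand above the other groups, while MTHFD2L spans 4.36 to 6.16 CPM.

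The promoters shown above can be set beside these values. In deleted cells 10 of the 15 members with a window that rose held either NF-kB form, and so did 2 of the 4 that fell, 2 of the 9 that did not pass and 2 of the 5 not tested. Either form stood in 48.5% of all members with a window and in 11.1% of all genes with one. CXCL1, CXCL2 and CXCL3, close relatives with the same capitals, were each counted. LIF, IL7, CCL5, CSF1, VEGFA and PLAT rose but had no window. A link between the forms and the calls was not tested. Those that rose without one were IL1A and IL11, whose windows have TGANTCA, and IL1B, PTGS2 and AREG. The window of VCAM1, which had no count in treated deleted cells, also holds the consensus.

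Per kilobase of exon, ICAM1 (42.2 CPM per kb), AREG (38.6) and IGFBP4 (33.6) were the most abundant members in treated deleted cells, followed by CXCL8 (21.2), PLAT (17.3) and IGFBP7 (17.3). In deleted cells in DMSO, IGFBP4 led with 38 CPM per kb, followed by ICAM1 (16.7), IGFBP7 (14.7) and PLAU (14). Treated intact cells had PLAU (22.4), IGFBP4 (18.8) and CSF1 (11.7) at the top, and intact cells in DMSO PLAU (26.2), IGFBP4 (22.3) and CSF1 (15.9). AREG per kb was 38.6 in treated deleted cells and 3.68 in deleted cells in DMSO, and 1.28 in treated intact cells and 1.06 in intact cells in DMSO.

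Other genes of the pathway were read from lists. A list of 29 regulators, mostly of the NF-kB, AP-1 and C/EBP type, also held STAT3, IRF1, MAPK14, MAPKAPK2, ZFP36 and ZFP36L1. All were tested in treated deleted cells, where 17 rose, 2 fell and 10 did not pass. Over all genes 17.5% were called higher and 13.1% lower. The median of the list was 0.80, against -0.02 over all genes, and it was 0.05 in intact cells. Those that fell were MAPK14 and MAPKAPK2. RELA, an NF-kB subunit named after its values were seen, did not pass (-0.10, SE 0.08, edgeR adjusted p = 0.396). ATF3, a stress-induced AP-1 type factor, rose by 4.10 (SE 0.11, edgeR adjusted p = 6.6e-11), with 157 CPM in each treated deleted library, against 8.07 to 10.2 CPM in DMSO. TNFAIP3, a feedback inhibitor of NF-kB, rose by 2.33 (SE 0.10, edgeR adjusted p = 1.8e-09), and IRF1, an interferon-response factor, by 2.03 (SE 0.10, edgeR adjusted p = 8.26e-09). Of 39 receptors of the members 26 were tested, of which 10 rose and 3 fell. IL1RAP, the co-receptor of IL-1, rose by 1.07 (SE 0.15, edgeR adjusted p = 7.91e-05) and IGF1R, the IGF receptor, by 0.96 (SE 0.09, edgeR adjusted p = 1.94e-06), while NRP1, a co-receptor of VEGFA, fell by 1.28 (SE 0.09, edgeR adjusted p = 2.33e-07). Of 7 tested antagonists 2 fell, the protease inhibitor SERPINE2 by 0.52 (SE 0.09, edgeR adjusted p = 0.000569) and the BMP antagonist GREM1 by 0.45 (SE 0.10, edgeR adjusted p = 0.00365).

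Among 32 tested further secreted factors of senescence, 6 rose and 5 fell, which is near the 17.5% higher and 13.1% lower over all genes, and their median was -0.01, against -0.02. GDF15, a stress cytokine, rose by 4.78 (SE 0.19, edgeR adjusted p = 1.29e-09) and the death receptor FAS by 2.24 (SE 0.12, edgeR adjusted p = 1.44e-08), while the protease inhibitor TIMP2 fell by 0.62 (SE 0.08, edgeR adjusted p = 2.86e-05). Of 7 tested genes of prostaglandin metabolism 4 rose and 1 fell. PTGES, the terminal synthase of prostaglandin E2, rose by 1.03 (SE 0.18, edgeR adjusted p = 0.000733) and PTGES3 fell by 0.46 (SE 0.09, edgeR adjusted p = 0.00114). CDKN1A, the cyclin-dependent kinase inhibitor p21, rose by 4.08 (SE 0.19, edgeR adjusted p = 3.97e-09) in deleted cells and did not pass in intact cells (0.21, SE 0.17, edgeR adjusted p = 0.668).

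Markers of other cell types were read in the same libraries. Of 16 leukocyte markers 15 or 16 were under 1 CPM in each library, and their sum was 4.46 to 6.08 CPM in treated deleted cells, 2.56 to 3.14 CPM in deleted cells in DMSO, 1.84 to 2.1 CPM in treated intact cells and 1.65 to 2.06 CPM in intact cells in DMSO. PTPRC, the pan-leukocyte marker, stayed under 0.8 CPM in all 12, and NKG7 and MS4A1 were at 0 in most. The list of 16 also held HBB, a globin gene of red cells and no leukocyte marker, which was at 0 in most libraries. The 1 tested marker that passed in treated deleted cells was ITGAM, an integrin chain (3.16, SE 0.35, edgeR adjusted p = 1.21e-05), named after its values were seen. Of 8 endothelial markers 7 or 8 were under 1 CPM in each library, and their sum was 1.69 to 2.58 CPM in treated deleted cells, 1.22 to 1.76 CPM in deleted cells in DMSO, 1.3 to 1.59 CPM in treated intact cells and 1.15 to 1.48 CPM in intact cells in DMSO. VWF was the 1 tested endothelial marker that passed in treated deleted cells. Of 10 mesenchymal markers 5 fell in treated deleted cells and 5 did not pass, among them SPARC (-0.98, SE 0.07, edgeR adjusted p = 2.04e-07), COL1A1 (-1.0, SE 0.09, edgeR adjusted p = 1.36e-06) and VIM (-0.84, SE 0.09, edgeR adjusted p = 5.36e-06). Of 13 epithelial markers 7 to 9 were under 1 CPM, and 4 of 11 tested rose, among them KRT17 (3.68, SE 0.21, edgeR adjusted p = 2.15e-08). KRT8 and KRT18, named after their values were seen, did not pass (edgeR adjusted p = 0.588 and 0.198). They averaged 363 and 187 CPM in treated deleted cells. The 13 genes summed to 563 to 572 CPM there and 462 to 624 CPM in deleted cells in DMSO. The sums were 386 to 565 CPM in treated intact cells and 484 to 505 CPM in intact cells in DMSO. The part of these markers in the changes of the members was not tested.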

How the data were processed

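Whole-transcriptome libraries were sequenced as 100-base read pairs, per the labels. The submitters' processing notes name STAR 2.7.9a, featureCounts from Subread 2.0.1 and the build hg38. The authors deposited raw counts per gene, without normalization. Neither annotation release nor strand setting is given in the sources used here. Symbols came from the reference table and positions from GENCODE 29 (hg38).

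The 12 libraries (totals in the report) were tested in 1 fit of the 4 groups with edgeR 4.0.16 (R 4.3.3): filterByExpr, TMM scaling, quasi-likelihood F test and Benjamini-Hochberg adjustment over 21803 genes, with a threshold of 0.05. The fit was also tested on simulated data with known changes in 1 group. The floor of 3 counts stands for 0.0303 to 0.0454 CPM before TMM scaling and covers counting error only. Every count of TNF, CXCL5, CXCL10 and CSF3 was an even number, so both reads of a pair may have been counted. The floor would then stand for fewer than 3 read pairs, and the fold bounds would be lower. This was not tested. Separate cultures are not mentioned in the labels, so the spread behind each p-value is that between samples and may be technical. Pairs of libraries of a group differed by more than sampling noise (chi-square per degree of freedom 8.48 to 206), so none was counted as a duplicate. The members, lists and named genes were chosen with earlier results of these data known: members with at least 5 CPM in a group are given per library, and those under 0.5 CPM in every group by counts. CXCL10, CXCL11 and CCL20 are given by counts too. Of each list up to 3 genes are named by lowest p, among those past the threshold with at least 5 CPM in a group. Some further genes are named outside this rule. Alternatives included DESeq2 1.42.0 and limma-voom (limma 3.58.1), other scalings and filters, a GC correction (loess span 0.5) and leaving out libraries. The result of 1 gene of the antagonist list is not reported here, and for that list the genes that fell are given.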

Additional observations from a re-analysis of the deposited data

Results flagged for a closer look

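In all, 21 members had a doxorubicin effect that differed between deleted cells at 1 µM and intact cells at 170 nM (edgeR test of the difference, adjusted p under 0.05). Dose and population change together here and cannot be told apart. Values are differences of log2 fold changes, deleted minus intact. They were 4.04 for IL1A, 2.76 for IL1B, 1.59 for IL6, 2.22 for LIF, 1.38 for IL32 and 3.61 for IL7. Among the chemokines they were 1.82 for CXCL1, 2.22 for CXCL2, 1.56 for CXCL3, 3.15 for CXCL8 and 3.11 for CXCL11. CXCL10 had a fitted value of 6.71, which depends on the prior count because it had 0 counts in deleted cells in DMSO, and is no bound. CSF1 was at 2.19, ICAM1 at 0.99 and PTGS2 at 2.23. The growth factors AREG, HBEGF and VEGFA were at 3.13, 0.94 and 1.16, and PLAT was at 2.06. STC1 (-1.28) and IGFBP5 (-2.44) were the 2 members with a lower effect in deleted cells.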

How the results depend on the processing

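Over 24 other settings, 104 member results past the threshold were followed: 75 kept their call in every setting, 92 in every setting but the one that also asks for a 2-fold change, and 12 were lost elsewhere, as named in the report. With a 2-fold change as well, the members lower in treated deleted cells numbered 2 (against 6), those higher in deleted cells in DMSO 4 (against 7), those higher in treated deleted than treated intact cells 9 (against 17), and those lower in treated intact cells 0 (against 1). In intact cells the count of members higher with doxorubicin was 1 under DESeq2 and with the GC trend removed, with or without the replicate block (against 0). The count of lower members there was 2 with library totals, 3 without a filter, with the 1 CPM filter, with DESeq2, with the GC trend removed and without the 2 libraries of high mitochondrial share, 2 with the GC trend removed and the replicate block, and 0 with only the groups compared or with the replicate block (against 1). Over all genes the calls with doxorubicin in intact cells were 253 higher and 214 lower under DESeq2, and 7 and 41 with library totals. They were 73 and 123 without a filter, and 21 and 44 with the 1 CPM filter. Without the 2 libraries of high mitochondrial share they were 109 and 86. They were 113 and 107 without replicate 2 of the deleted DMSO group, and 60 and 21 without replicate 2 of the treated intact group. Leaving out any other single library gave at most 3 higher and 2 lower. With the GC trend removed and the replicate block they were 210 and 66. Same-numbered libraries did not deviate together (correlations -0.22 to 0.12), and the replicate block changed no other count of members by over 1.5 times. Members with a smaller effect in deleted than in intact cells numbered 4 with the GC trend removed, with or without the block (against 2). The cause was not tested.

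Leaving out 1 library gave 20 to 22 members higher and 4 to 6 lower in treated deleted cells, 0 higher and 0 to 3 lower in treated intact cells, 7 to 8 higher and 19 to 22 lower between the populations in DMSO, 14 to 17 higher and 9 to 11 lower between the treated populations, and 19 to 21 higher and 2 to 3 lower for the difference of effects. Over all genes these fits called 3120 to 4169 higher and 2061 to 3354 lower in treated deleted cells. Between the populations in DMSO they called 2910 to 4173 higher and 2817 to 4136 lower. Between the treated populations they called 4699 to 6067 higher and 4346 to 5682 lower. For the difference of effects they called 1767 to 2406 higher and 933 to 2190 lower. Values that changed sign were not past the threshold. These were LIF and IL32 between the treated populations with the GC trend removed (-0.08 and -0.07, also with the block), IL7 in intact cells (range without 1 library -0.20 to 0.48) and CCL26 there (-0.05 to 0.35), both without replicate 2 of the treated intact group, IL24 in the difference of effects (-0.14 to 0.50) without replicate 2 of the treated deleted group, and CCL26 in it (-0.46 to 0.02) without replicate 2 of the treated intact group. Removing the GC trend shifted the median of all genes to -0.13 (against -0.02) for doxorubicin in deleted cells, to -0.15 (against 0.02) between the treated populations and to -0.19 (against -0.03) for the difference of effects, and the genes called in treated deleted cells were 3637 higher and 5353 lower (against 3822 and 2862). The split was 455 and 114 (against 6 and 7) in treated intact cells, 5036 and 7158 (against 5655 and 4766) between the treated populations and 2162 and 4445 (against 2235 and 1470) for the difference of effects. Members near the floor of 3 counts are limited by depth.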
